A study of Homo sapiens with 6 samples.

Results

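The replication-dependent histone genes were examined in ATAC-seq data from human naive embryonic stem (nES) cells. They were chosen as the GENCODE protein-coding genes with the symbols H1-1 to H1-6, or with a symbol that begins with H2AC, H2BC, H3C or H4C and a number, which gave 70 of 20033 protein-coding genes. Of these, 6 encode linker histone H1, 17 encode H2A, 19 encode H2B, 13 encode H3 and 15 encode H4. Accessibility was read from the rows of the count table whose centre lay within 1 kb of a transcript start of a member, 155 of 171517 rows, each a peak shortened around its summit or several such peaks merged (200 to 443 bp wide, median 204). Distances are from the row centre to the nearest annotated start of the gene, which need not be its main start. A row was found for 65 of the 70 genes and none for H1-6, H2AC1, H2BC1, H2BC12L and H4C7.

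All 6 libraries came from H9 cells, an embryonic stem cell line established from a human blastocyst, kept in the naive state in tt2iLGö medium. In 3 of them the cells received 4 mM dimethyl α-ketoglutarate (dm-αKG), a cell-permeable form of the metabolite α-ketoglutarate, for 24 h, and the other 3 were controls labelled DMSO, which the methods describe as medium without dm-αKG. The cells were depleted of feeders before plating, and the experiment covers a single cell line with 3 biological replicates per treatment. Counts in rows ranged from 13025674 to 26828622 per library, and the log2 counts of libraries of the same treatment correlated at 0.942 to 0.966 across rows, against 0.911 to 0.928 between treatments. Of 10 naive pluripotency genes, 9 had a row within 1 kb of a start, with a median percentile of 95.9 in accessibility among all rows. The median percentile was 83.6 for the 5 of 8 fibroblast genes with a row, 87.7 for 8 trophoblast genes and 75.6 for 8 primed genes. The feeders were mouse cells and the reads were aligned to the human genome, so these genes do not measure how many feeders remained. In ATAC-seq a transposase inserts adapters into open DNA, so counts follow accessibility and not transcription, and in a bulk sample a lower signal per cell and fewer cells with an open site cannot be told apart.

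Replication-dependent histones package newly copied DNA, with H2A, H2B, H3 and H4 forming the nucleosome core and H1 binding the linker DNA. Their genes are short, mostly lack introns, stand in clusters and are transcribed mainly in S phase, when the factor NPAT gathers at them in the histone locus body. Their messenger RNAs usually end in a stem-loop bound by SLBP instead of a poly(A) tail, which sets them apart from the replacement histones made throughout the cell cycle.

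The members lay in 8 loci, joined where starts were within 200 kb of each other. The largest, on chromosome 6 (hg38, chr6:26017787-26285534), held 32 genes. Further groups were 16 genes at chr6:27807929-27893425, 5 genes at chr6:27132795-27147106 and 11 genes at chr1:149812370-149887965. Many H2A and H2B genes stand head to head and share a promoter, so the 65 genes had 55 distinct start rows (within 250 bp of the main start), of which 10 served at least a pair of members. Rows of such pairs count for both genes.

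A selection of promoters that covers every class is shown here because each class has its own arrangement of short elements. Capitals mark the matches of these letters on either strand: the octamer ATTTGCAT or ATGCAAAT on the opposite strand, known as a site for POU factors, the CCAAT box, spelled CCAAT or on the opposite strand ATTGG, the TATA box, spelled TATAAA or on the opposite strand TTTATA, the E2F site TTTNGCGC, GGTCCG as the core of the H4 element bound by HINFP, and AAACACA as the AC box of H1 genes. Adjacent or overlapping matches run together, as in TTTATAAA, which is a TATA box on both strands. The shared promoters of H2AC11 with H2BC11 (chr6:27132796-27133042, plus strand) and of H2AC12 with H2BC12 (chr6:27146856-27147105, plus strand) are given from start to start. For H1-4 (chr6:26156129-26156328, plus strand), H3C2 (chr6:26032100-26032299, minus strand), H4C4 (chr6:26189113-26189312, minus strand) and H4C9 (chr6:27139082-27139281, plus strand), the 200 bases before the start are given. All were read from hg38.
H2AC11/H2BC11: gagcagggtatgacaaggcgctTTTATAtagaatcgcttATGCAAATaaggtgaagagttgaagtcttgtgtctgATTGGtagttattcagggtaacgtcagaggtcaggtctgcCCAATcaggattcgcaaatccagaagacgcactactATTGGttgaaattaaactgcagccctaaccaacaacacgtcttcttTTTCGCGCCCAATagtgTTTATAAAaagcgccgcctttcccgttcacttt
H2AC12/H2BC12: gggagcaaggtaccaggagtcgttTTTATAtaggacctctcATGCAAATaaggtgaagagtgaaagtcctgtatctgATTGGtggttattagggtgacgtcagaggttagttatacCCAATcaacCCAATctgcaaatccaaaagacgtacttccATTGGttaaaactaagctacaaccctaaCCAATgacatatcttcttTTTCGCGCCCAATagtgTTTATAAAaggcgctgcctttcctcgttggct
H1-4: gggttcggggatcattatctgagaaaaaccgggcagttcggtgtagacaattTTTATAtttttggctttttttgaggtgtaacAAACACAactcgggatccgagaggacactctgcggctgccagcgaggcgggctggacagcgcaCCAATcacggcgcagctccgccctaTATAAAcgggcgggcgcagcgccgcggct
H3C2: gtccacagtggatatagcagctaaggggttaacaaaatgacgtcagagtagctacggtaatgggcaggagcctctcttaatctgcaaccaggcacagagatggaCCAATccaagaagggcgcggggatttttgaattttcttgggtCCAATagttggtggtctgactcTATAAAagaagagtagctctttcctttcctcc
H4C4: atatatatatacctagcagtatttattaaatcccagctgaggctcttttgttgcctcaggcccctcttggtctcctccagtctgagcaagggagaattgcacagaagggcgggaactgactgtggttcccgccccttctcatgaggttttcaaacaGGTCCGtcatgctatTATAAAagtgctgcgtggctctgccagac
H4C9: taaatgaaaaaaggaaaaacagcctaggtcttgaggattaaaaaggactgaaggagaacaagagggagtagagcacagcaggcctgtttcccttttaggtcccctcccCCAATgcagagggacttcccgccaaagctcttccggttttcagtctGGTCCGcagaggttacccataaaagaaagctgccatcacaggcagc

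The elements divided by class. Over the window from 250 bases before to 50 after the start, the octamer was found in 12 of 17 H2A and 15 of 19 H2B promoters and in 0 of the H1, H3 and H4 promoters, against 1.62% of all 20033 protein-coding promoters. Windows of head-to-head genes overlap and can hold the same match. The AC box was present in 6 of 6 H1 promoters and in 4.19% of all promoters. The HINFP core was present in 13 of 15 H4 promoters and in 14.7% of all promoters, and its first base lay 44 bases before the start of H4C4 and 46 before that of H4C9. A CCAAT box was found in 59 of 70 member promoters against 36.1% of all, with only 5 of 15 in the H4 class. TATA boxes occurred in 47 of 70 against 9.71%, and E2F sites in 13 of 70 against 2.28%. In both shared promoters printed above, the E2F match is followed directly by a CCAAT box. A match describes the letters only, and no binding was measured here.

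The histone starts were among the more accessible rows of the table. To compare genes, levels are given as normalised counts per 200 bp of row width in controls, where a normalised count is scaled to a common library size. The 55 start rows had a median level of 226 per 200 bp, at a median percentile of 88.3 among all rows. The 22908 rows centred within 150 bp of any protein-coding start, alternative starts included, had a median level of 145, at a median percentile of 79.4. The 59 histone rows chosen in that way had a median level of 223, at a median percentile of 88.1. By class, the shared H2A and H2B starts had the highest median level, 383 per 200 bp over 10 rows at a median percentile of 95.4. The median level was 305 for 6 rows of H2A alone, 248 for 7 of H2B alone, 208 for 13 of H3, 185 for 5 of H1 and 164 for 14 of H4. The ranges overlapped, since the H4 starts ran from 108 to 447 and the shared starts from 181 to 577, as the plot of start row levels by class shows.

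**Figure D1:**
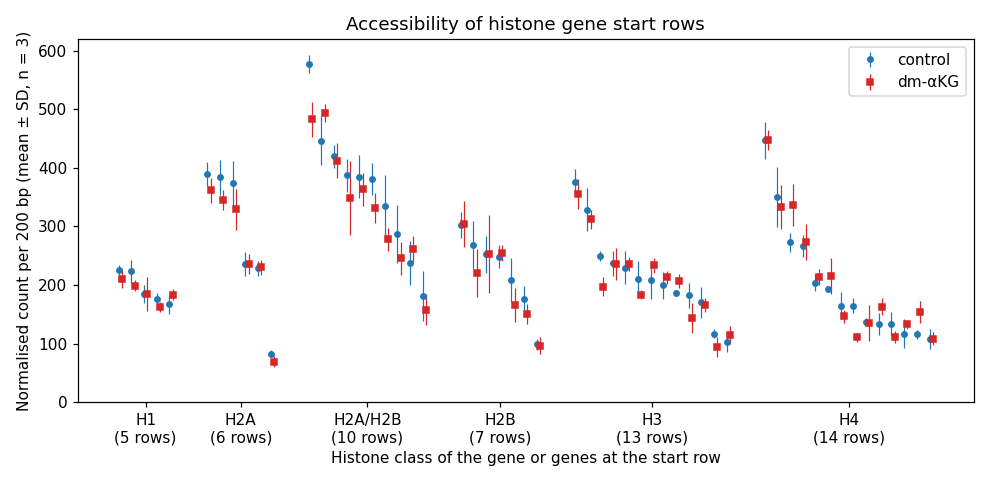
Normalised count per 200 bp (vertical axis) of the 55 start rows, grouped by the histone class of their genes (horizontal axis). Circles are control means and squares dm-αKG means, with bars of 1 SD over 3 libraries. The shared H2A/H2B starts reach 577 in controls, and 48 of the 55 rows did not pass the test.

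The highest of all histone rows was the promoter shared by H2AC11 and H2BC11, which encode core histones H2A and H2B (row at chr6:27132808-27133013). Its normalised counts were 597, 610 and 577 in the 3 controls and 511, 520 and 463 with dm-αKG. All dm-αKG libraries were below all controls. The log2 fold change of dm-αKG against control was -0.25 (SE 0.08, adjusted p = 0.0121, edgeR's quasi-likelihood test, Benjamini-Hochberg over all rows). This call depended on the processing, because with offsets for GC content the change was -0.15 and did not pass, and it was also lost when control replicate 1, control replicate 2 or, among the treated libraries, replicate 3 was left out.

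Other highly accessible starts showed smaller differences. The promoter shared by H2AC15 and H2BC15 held 473, 499.8 and 519 normalised counts in controls and 468, 529.8 and 469 with dm-αKG, with overlapping groups (log2 fold change -0.03, SE 0.08, adjusted p = 0.86 by edgeR). This small difference turned to 0.08 with GC offsets. The H4C1 start held 479, 454 and 415 counts in controls and 467, 452 and 433 with dm-αKG (log2 fold change 0.0045, SE 0.08, adjusted p = 0.98 by edgeR). The start of H3C2, the H3 start with the highest level, held 356, 400.3 and 383 counts in controls and 331, 360.5 and 383 with dm-αKG (log2 fold change -0.10, SE 0.09, adjusted p = 0.495 by edgeR). H1-1, whose start was the highest of the H1 starts, gave 220.0, 232 and 236 against 196, 219 and 225 (log2 fold change -0.11, SE 0.11, adjusted p = 0.524 by edgeR). None of these 4 passed the test, and differences of the size of a few SE remain possible.

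Over all 155 rows, 17 were lower and 20 higher with dm-αKG at an edgeR adjusted p below 0.05, and 118 did not pass. In the whole table, 10.5% of rows were lower and 7.43% higher, and among the 50908 rows within 1 kb of any protein-coding start 3.86% were lower and 10.4% higher. The share of lower histone rows was 11.0%, near that of the whole table. Their median log2 fold change was -0.03, against 0.10 for promoter rows and 0.01 for all rows. The histone rows had a median GC content of 52.7% and the promoter rows one of 65.9%, and with offsets for GC content these medians were 0.02 and 0.05, with 13 of 155 histone rows and 2636 of 50908 promoter rows lower. The study's own thresholds require an adjusted p under 0.01 and more than a doubling or halving. Past them, 2 histone rows were lower and 1 higher, against 1.96% and 0.782% of all rows and 0.316% and 0.485% of promoter rows. All 3 dm-αKG values were below all 3 control values in 22 histone rows and above them in 27, against 16.9% and 15.5% of all rows and 8.05% and 21.6% of promoter rows. The counts depended on single libraries: lower rows fell to 10 without control replicate 1 and to 9 without control replicate 2, and higher rows fell to 11, 11 and 10 without control replicates 1, 2 and 3, to 4 without dm-αKG replicate 1 and to 10 without dm-αKG replicate 2. Calls over all 171517 rows fell in the same fits. Lower rows went from 18047 to 13153 and 13387 without control replicates 1 and 2. Higher rows went from 12743 to 7808 without dm-αKG replicate 1 and to 8324 to 9527 in the other fits named here. Past the study's thresholds, a single histone row remained when either control replicate 2 or the deepest dm-αKG library, replicate 1, was left out.

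The class medians of log2 fold change over all rows were 0.01 for H1 (15 rows, 1 lower and 2 higher), -0.13 for H2A (39 rows, 6 and 4), -0.10 for H2B (50 rows, 9 and 5), 0.01 for H3 (36 rows, 3 and 5) and 0.01 for H4 (49 rows, 3 and 8). Rows near genes of more than 1 class count in each. With GC offsets these medians were 0.05 for H1, -0.07 for H2A, -0.02 for H2B, 0.08 for H3 and 0.075 for H4. The rows were also divided by where they lay relative to the gene, into start rows (centre within 150 bp of the nearest member start), upstream rows, rows inside the gene, and rows beyond the end of the transcript. This division was chosen after the values had been seen, so its counts are descriptions.

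**Figure D2:**
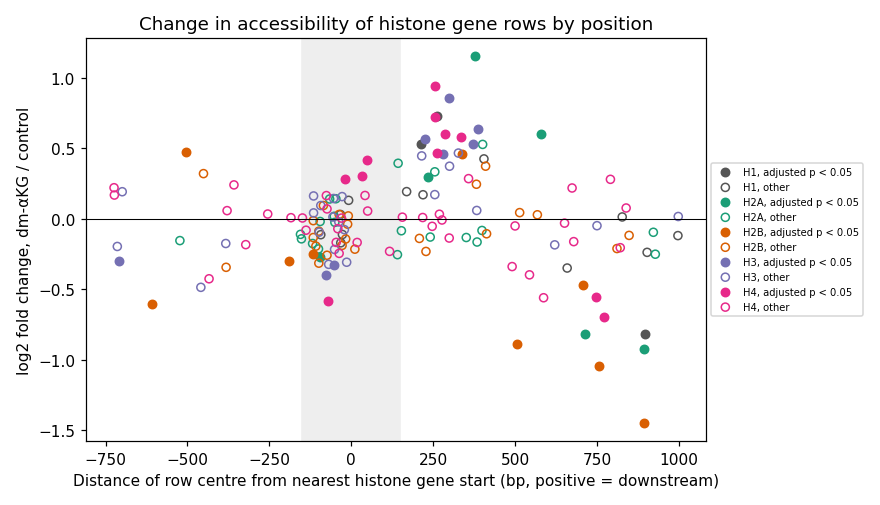
Log2 fold change of dm-αKG against control (vertical axis) of the 155 histone rows by the distance in bp of the row centre from the nearest member start (horizontal axis, grey band within 150 bp). Colours give the class of the nearest gene, and filled points passed an edgeR adjusted p below 0.05. Filled points between 200 and 400 bp lie above 0, and those beyond 600 bp lie below 0.

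At the starts, 5 of 59 rows were lower and 3 higher, with a median log2 fold change of -0.07. Among all promoter rows at that position 3.73% were lower and 9.58% higher. The lower rows were those of H2AC11 with H2BC11, of H2AC12 with H2BC12, of H4C9, of H3C10, and a row at an alternative start of H3C6. The higher rows were those of H4C4, H4C5 and H4C12, all H4 genes. The H4C4 and H4C12 rows were centred within the gene, 34 and 48 bp past the start, and the H4C5 row 20 bp before it. Of the 44 start rows centred outside the gene, 5 were lower and 1 higher. With GC offsets the start rows numbered 2 lower and 4 higher, while 1390 of 22908 promoter rows at that position were lower and 1349 higher. Of the 5 lower rows named here, only H4C9 passed with GC offsets, and only H4C9 and the H2AC11 start passed with DESeq2. The 3 higher rows passed with GC offsets but did not with DESeq2.

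H4C9 had the largest decrease at a start (row at chr6:27139109-27139310). Its normalised counts were 155, 180.0 and 163 in controls and 107, 108 and 119.7 with dm-αKG, without overlap, a log2 fold change of -0.59 (SE 0.14, adjusted p = 0.00151 by edgeR). The H3C10 start gave 282, 271 and 264 in controls and 234, 210.4 and 199 with dm-αKG (log2 fold change -0.33, SE 0.11, adjusted p = 0.0209 by edgeR), also without overlap, and with GC offsets it did not pass. At the shared start of H2AC12 and H2BC12 the values were 385, 386 and 288 in controls and 315, 289 and 275 with dm-αKG, which overlap (log2 fold change -0.27, SE 0.10, adjusted p = 0.0409 by edgeR). With GC offsets it was -0.16 and did not pass. The H4C9 promoter, printed above, holds the HINFP core as that of H4C4 does, and the start row of H4C4 changed in the other direction.

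At the H4C4 start the normalised counts were 278, 307 and 275 in controls and 369, 379.7 and 309.8 with dm-αKG, without overlap (log2 fold change 0.31, SE 0.10, adjusted p = 0.0156 by edgeR). H4C12 gave 112, 127 and 118 in controls and 172, 164 and 136 with dm-αKG, again without overlap (log2 fold change 0.42, SE 0.14, adjusted p = 0.0279 by edgeR). Its row is 96.1% identical to the start row of H4C11, for which the change was 0.16 (adjusted p = 0.489 by edgeR). H4C5 held 239, 305 and 244 counts in controls and 319.8, 349 and 293 with dm-αKG, with overlap (log2 fold change 0.28, SE 0.10, adjusted p = 0.0385 by edgeR). Each of these 3 starts passed in only 2 of the 6 fits that left out 1 library.

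By class, the median log2 fold change of the start rows was -0.16 for the shared H2A and H2B starts, -0.13 for H2A, -0.04 for H2B, -0.02 for H3, -0.11 for H1 and 0.03 for H4. Of the 5 H1 starts, 0 passed the edgeR test, also at an unadjusted p below 0.05. Over the 17 start rows whose genes hold an octamer the median was -0.13, with 2 lower and 0 higher, and over the 38 without it was -0.01, with 2 lower and 3 higher. Over the 15 start rows with the HINFP core the median was 0.05, and over the other 40 it was -0.09. These medians follow the class of the genes and were not tested. The classes differ in GC content, with medians from 42.4% for the shared starts to 59.9% for H1 starts. With GC offsets the medians were -0.06 for the shared starts, -0.06 for H2A, 0.07 for H2B, 0.06 for H3, -0.09 for H1 and 0.10 for H4.

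Inside the genes, 32 of 49 rows had a positive change, as did 11058 of 15733 promoter rows inside any gene. Of the 49, 15 were higher and 2 lower at an edgeR adjusted p below 0.05, with a median log2 fold change of 0.19. Among all promoter rows inside a gene, 13.1% were higher and 3.1% lower, with a median of 0.16. All 15 higher rows had their centre in a coding exon, where 39 rows lay, 30 of them with a positive change, 0 lower, and a median of 0.37. Among 2556 rows that lay in a coding exon of another gene at a like distance from its start, 14.1% were higher and 2.00% lower, with a median of 0.17. For other intronless genes these shares were 12.4% and 0.727% over 275 rows. By class, 5 of 10 coding rows were higher for H3, 5 of 11 for H4, 2 of 6 for H1, 2 of 9 for H2A and 1 of 3 for H2B. For H3 all 10 changes were positive, from 0.06 to 0.85. A row is in the table where a summit was called in either treatment, so rows found only with dm-αKG tend to be higher. Of the 26 inside rows with a summit in both lists, 10 were higher and 0 lower. The shares for other genes cover rows from either list, and no share for rows in both lists was computed for them.

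The sequence of some of these rows shows that they fall in the histone-coding part. The row 299 bp into H3C7 (chr6:26250228-26250443, minus strand), the coding stretch of the row 377 bp into H2AC6 (chr6:26124480-26124622, plus strand) and that of the row 256 bp into H4C15 (chr1:149860823-149860982, minus strand) are given as read from hg38, with CG dinucleotides in capitals. Coding rows were rich in CG, with a median of 7.39 per 100 bp against 4.31 in start rows and 4.09 beyond the ends.
H3C7 +299: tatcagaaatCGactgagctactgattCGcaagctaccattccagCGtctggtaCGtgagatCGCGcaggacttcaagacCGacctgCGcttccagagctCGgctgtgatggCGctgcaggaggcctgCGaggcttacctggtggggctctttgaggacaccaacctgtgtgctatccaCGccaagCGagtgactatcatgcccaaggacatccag
H2AC6 +377: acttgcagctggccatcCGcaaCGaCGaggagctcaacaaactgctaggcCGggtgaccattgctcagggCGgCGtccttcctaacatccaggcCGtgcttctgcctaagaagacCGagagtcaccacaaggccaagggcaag
H4C15 +256: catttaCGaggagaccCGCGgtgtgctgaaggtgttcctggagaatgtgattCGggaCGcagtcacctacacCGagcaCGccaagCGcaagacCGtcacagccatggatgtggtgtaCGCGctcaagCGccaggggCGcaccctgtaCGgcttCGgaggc

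H3C7, an H3 gene, had normalised counts of 102, 95.4 and 104 in controls and 184, 199 and 159 with dm-αKG in this row, well apart, with a log2 fold change of 0.85 (SE 0.14, adjusted p = 2.98e-06 by edgeR). At its own start, the values averaged 110.1 ± 18.0 in controls and 124 ± 16.7 with dm-αKG (SD, n = 3), which did not pass (log2 fold change 0.16, adjusted p = 0.531 by edgeR). The H2AC6 row, also within 1 kb of the H2BC4 start, was low in controls, at 32.2, 27.1 and 31.6, and reached 78.2, 48.7 and 71.8 with dm-αKG. With a log2 fold change of 1.15 (SE 0.24, adjusted p = 0.000197 by edgeR) it was the only histone row above the study's thresholds, and a summit in it had been called in the dm-αKG list only. In the linker histone gene H1-4, the row 263 bp past the start held 74.2, 56.7 and 46.2 counts in controls and 109.7, 108 and 74.8 with dm-αKG (log2 fold change 0.73, SE 0.19, adjusted p = 0.00329 by edgeR). The lowest dm-αKG library barely exceeded the highest control there, and without dm-αKG replicate 1 the row did not pass.

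The smallest p of all histone rows belonged to H4C15. The row 256 bp past its start held 163, 155 and 138 normalised counts in controls and 312, 322 and 238 with dm-αKG, without overlap (log2 fold change 0.94, SE 0.12, adjusted p = 6.57e-10 by edgeR). Its copy H4C14 (row at chr1:149832834-149833036) gave 168, 154 and 186 in controls and 292, 304 and 228 with dm-αKG (log2 fold change 0.72, SE 0.12, adjusted p = 1.14e-06 by edgeR). These genes are near-identical inverted copies, the rows are 99.0% identical, and the coding stretch printed above has 0 differences over 160 bases from that of H4C14. Reads that match both copies may have been split or dropped, so the values are uncertain as values of either gene. The H4C15 start averaged 369.6 in controls and 387 with dm-αKG and did not pass (log2 fold change 0.07, SE 0.09, adjusted p = 0.637 by edgeR). Of the 155 rows, 14 were at least 95% identical to another. Without them, 13 of 47 inside rows were higher and 2 lower.

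**Figure D3:**
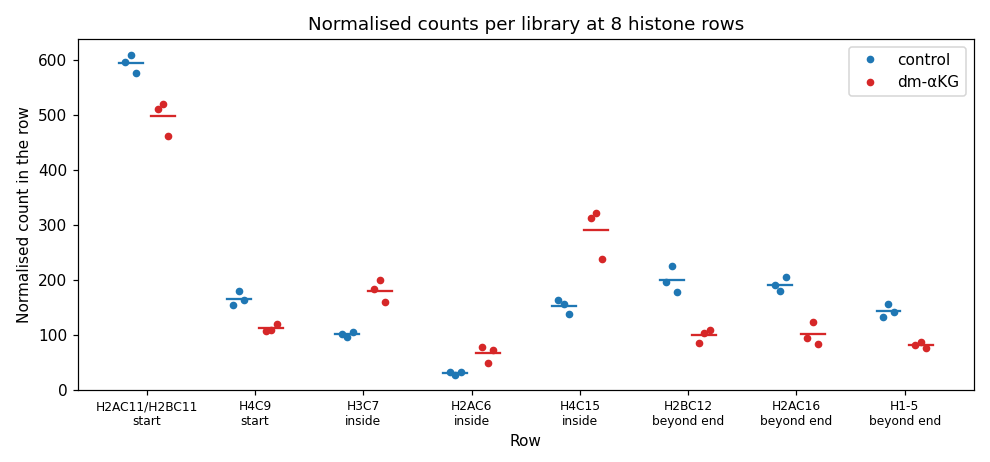
Normalised count (vertical axis) in each of the 3 control and 3 dm-αKG libraries, with a line at the mean, for 8 histone rows named by gene and position (horizontal axis). The 8 were taken from rows that passed the test, so they do not represent all rows of their position. The groups do not overlap in any of them. The 3 rows inside genes are higher with dm-αKG, and the start and beyond-end rows shown are lower. Called rows of the other direction are not shown: the higher starts of H4C4, H4C5 and H4C12, the lower H2BC18 rows and the higher H2AC25 row.

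The count of higher rows inside genes was sensitive to the libraries. With control replicate 2 left out it was 6. It was 4 when dm-αKG replicate 1, the deepest library, was left out, and 8 when dm-αKG replicate 2 was. In the same fits, higher calls over all rows went from 12743 to 8835, 7808 and 8324. Of the 32 inside rows with a GC content of at least 55%, 12 were higher and 0 lower, and of the 17 below it 3 were higher and 2 lower. With GC offsets the count inside histone genes was 14 higher and 2 lower. Over the 15733 promoter rows inside any gene, the same offsets took higher rows from 2063 to 1543 and lower rows from 487 to 554. In the main fit, without offsets, 8.72% of 218 coding rows of other genes with 55% to 60% GC were higher and 5.96% lower.

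The 2 lower rows inside a gene both belonged to H2BC18 on chromosome 1, an H2B gene. They lay past the end of its short main transcript and in an intron of longer annotated transcripts, and their distances are from an alternative start. The row 893 bp past that start (chr1:149810764-149810963) held 34.0, 42.7 and 38.9 normalised counts in controls and 10.8, 11.5 and 22.5 with dm-αKG (log2 fold change -1.45, SE 0.34, adjusted p = 0.000863 by edgeR), the largest decrease of any histone row. The row 507 bp past it (chr1:149811150-149811349) held 124, 123 and 143 in controls and 74.6, 57.7 and 76.3 with dm-αKG (log2 fold change -0.89, SE 0.17, adjusted p = 3.96e-05 by edgeR). Both rows were in the table through the control list only. The row at the main H2BC18 start averaged 313 ± 23.2 in controls and 315 ± 40.8 with dm-αKG (SD, n = 3) and did not pass (log2 fold change -0.01, adjusted p = 0.942 by edgeR).

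Beyond the ends of the genes, 7 of 26 rows were lower and 1 higher, with a median log2 fold change of -0.20. Across all promoter rows beyond a transcript end, 8 of 134 (5.97%) were lower and 17 (12.7%) higher. These 134 rows include the histone rows, so their share of lower rows is no separate background. Of the 16 histone rows beyond an end with a summit in both lists, 4 were lower and 1 higher, again without a like share for other genes. The decrease with the smallest p lay 755 bp past the start of H2BC12, at 196, 224 and 177 normalised counts in controls and 84.6, 104 and 109 with dm-αKG (log2 fold change -1.04, SE 0.14, adjusted p = 1.39e-08 by edgeR). Its sequence (chr6:27145995-27146204, minus strand, read from hg38 with CG in capitals) is less rich in CG than the coding rows above and lies 261 bp past the annotated end.
H2BC12 +755: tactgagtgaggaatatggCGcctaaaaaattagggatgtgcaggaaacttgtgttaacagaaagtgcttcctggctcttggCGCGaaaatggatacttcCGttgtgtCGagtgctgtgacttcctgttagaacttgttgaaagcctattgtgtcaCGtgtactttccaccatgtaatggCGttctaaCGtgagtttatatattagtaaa

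H2AC16 and H1-5 face each other on chromosome 6, and the rows past their ends lie between them. The row past H2AC16 (chr6:27866105-27866313) held 189.6, 179 and 205 normalised counts in controls and 94.7, 123 and 83.8 with dm-αKG (log2 fold change -0.93, SE 0.14, adjusted p = 4.61e-07 by edgeR). The row past H1-5 (chr6:27866591-27866792) held 132, 156 and 141 in controls and 81.7, 85.9 and 74.8 with dm-αKG (log2 fold change -0.82, SE 0.16, adjusted p = 5.28e-05 by edgeR). Neither pair of groups overlapped. The starts of these genes did not pass, at log2 fold changes of 0.02 for H2AC16 (adjusted p = 0.94 by edgeR) and -0.11 for H1-5 (adjusted p = 0.585 by edgeR). The remaining lower rows beyond an end were those of H2AC14 (-0.82), H4C3 (-0.70), H4C6 (-0.56) and H2BC13 (-0.47), and the single higher row was that of H2AC25 (0.60). Of these 5, H2AC14 passed in all 6 fits that left out 1 library, H2BC13 in 4, H4C3 and H2AC25 in 3 and H4C6 in 2. H4C6 did not pass with GC offsets, and H2BC13, H4C6 and H2AC25 did not with DESeq2. The H2AC25 groups overlapped, and its change ran from 0.25 to 0.84 over the left-out libraries. An accessible row beyond an end need not change, as the row 997 bp past the H1-2 start held 341, 399.5 and 306 counts in controls and 336, 336 and 290.4 with dm-αKG (log2 fold change -0.12, SE 0.09, adjusted p = 0.406 by edgeR).

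Upstream of the starts, 3 of 21 rows were lower and 1 higher (median log2 fold change -0.14), against 5.07% lower and 8.49% higher among all upstream promoter rows. Both H2BC5 rows fell. The row at -609 bp from its start had 150.3, 205 and 134 normalised counts in controls and 125, 110.3 and 79.3 with dm-αKG (log2 fold change -0.61, SE 0.15, adjusted p = 0.00204 by edgeR), and it did not pass without control replicate 2. The row at -190 bp had a log2 fold change of -0.30 (SE 0.10, adjusted p = 0.0182 by edgeR), and it did not pass with DESeq2 or, at -0.20, with GC offsets. Between H3C14 and H2AC18, a row centred at -710 bp from the H3C14 start held 359, 396 and 381 in controls and 318, 277 and 325 with dm-αKG (log2 fold change -0.30, SE 0.09, adjusted p = 0.0128 by edgeR). This row did not pass with DESeq2, or with control replicate 2 or dm-αKG replicate 2 left out, and is 97.8% identical to its copy upstream of H3C15. The higher row was that of H2BC10 (log2 fold change 0.47). With GC offsets, the H2BC5 row at -190 bp and the H2BC10 row did not pass and the row upstream of H3C15 did (-0.27), which left 3 upstream rows lower and 0 higher.

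Summed over rows, the shares of the libraries inside and beyond the histone genes moved in opposite directions. The inside rows took 0.0267%, 0.0266% and 0.0263% of the counts of the 3 controls and 0.0321%, 0.0313% and 0.0276% with dm-αKG, without overlap. The rows beyond the ends took 0.0188%, 0.0196% and 0.0197% in controls and 0.0181%, 0.0165% and 0.0162% with dm-αKG, also without overlap. At the starts the shares overlapped, at 0.0764%, 0.0818% and 0.0721% in controls and 0.0779%, 0.0761% and 0.0707% with dm-αKG. These sums describe the same rows, under a division chosen after the values had been seen, and are no separate test. No such sums are given for other genes. Promoter rows inside any gene had a median log2 fold change of 0.16, and those beyond any transcript end, histone rows included, one of 0.08. Of the 49 inside rows, 18 had a summit in the dm-αKG list only and 5 in the control list only. Of the 26 rows beyond the ends, 8 had one in the control list only and 2 in the dm-αKG list only. Rows found in 1 list only tend to be higher in that treatment, and no sum was taken over rows in both lists.

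**Figure D4:**
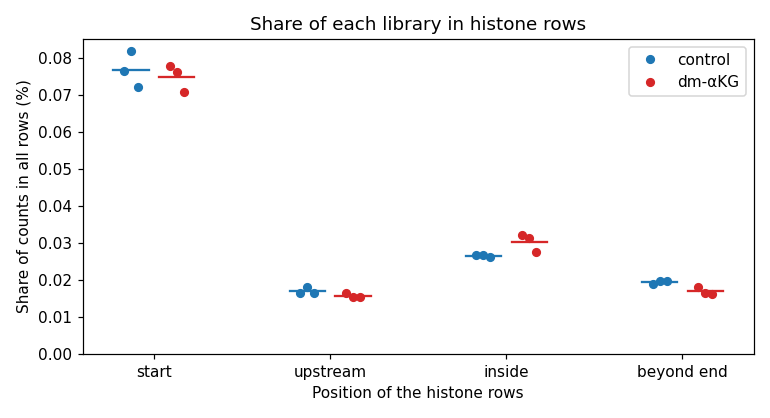
Share of each library's counts in all rows, in percent (vertical axis), that fell in histone rows at each position (horizontal axis), with 1 point per library and a line at the mean of 3. The inside shares are higher with dm-αKG and the beyond-end shares lower, while the start shares overlap.

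The counts by locus were not tested against each other, and the shares over all rows were 10.5% lower and 7.43% higher. In the large chromosome 6 locus, 5 of 84 rows were lower and 12 higher (median log2 fold change 0.005). In the 5-gene locus that holds H2BC11, H2BC12 and H4C9, 4 of 9 were lower and 0 higher (median -0.25), and with GC offsets 2 were lower (median -0.15). The locus with H1-5 had 5 lower and 5 higher of 30 (median -0.09), and the one on chromosome 1 with H4C14 had 3 lower and 2 higher of 22 (median -0.12). The 43 other rows that lay between member starts, more than 1 kb from any of them, numbered 13 lower and 0 higher, with a median of -0.23. This is 30.2% lower against 10.5% of all rows, which include promoter rows at 3.86% lower. Their median GC content was 49.3%, against 55.5% for all rows. With GC offsets 11 of the 43 were lower and 0 higher (median -0.16).

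The factors that serve these genes were compared by the row of highest count within 1 kb of a start, for which the promoter shares of 3.86% lower and 10.4% higher are the background. NPAT, which drives histone gene transcription, had 898, 886 and 844 normalised counts in controls and 879.9, 909.5 and 928 with dm-αKG (log2 fold change 0.04, SE 0.07, adjusted p = 0.697 by edgeR). SLBP, which binds the stem-loop, had 399, 427 and 383 in controls and 425, 378 and 464 with dm-αKG (log2 fold change 0.06, SE 0.09, adjusted p = 0.663 by edgeR). Of the 17 genes for histone transcription and mRNA processing, 0 were lower and 1 higher, which was CPSF2 (log2 fold change 0.51, SE 0.13), a subunit of the 3′ end cleavage machinery. Of 11 replacement and variant histone genes with a row, 1 was lower, MACROH2A1 (-0.88, SE 0.16), and 0 higher. Histone chaperones numbered 1 lower and 4 higher of 17, among them ASF1B (0.27, SE 0.07) and HIRA (0.30, SE 0.07) and, in the lower direction, ATRX (-0.49, SE 0.14). DNA replication genes numbered 1 lower and 1 higher of 17, and histone acetylation enzymes 0 lower and 2 higher of 15. Of the cell type markers, KLF17 was lower (-0.39, SE 0.09) and SUSD2 higher (0.33, SE 0.07) among 9 naive genes. Among 8 primed genes 3 were lower, including DUSP6 (-0.30, SE 0.09), and among 8 trophoblast genes 1 was higher, TP63 (1.10, SE 0.27). The TP63 row was low, with 28.6, 27.9 and 17.0 normalised counts in controls, at a percentile of 2.4. The part of all these genes in the histone rows was not tested.

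In the peak lists of the authors, 132 of the 155 rows held a summit of the control list and 139 one of the dm-αKG list, and 116 held both. For each histone row the overlapping peak of highest fold enrichment was taken. The median was 8.18 over 147 rows for the control list and 8.54 over 144 rows for the dm-αKG list. A peak that spans several rows counts for each of them, while the medians over all peaks, 8.64 and 8.75, count each peak singly. By the mean of all 6 libraries, the lowest row of each class was that of H1-2 (405 bp past the start, 30.7 ± 4.05 counts in controls), H2AC4 (384 bp past, 51.0 ± 7.72), H2BC18 (893 bp past, given above), H3C6 (at -383 bp from an alternative start, 48.9 ± 12.4) and H4C3 (544 bp past, 44.9 ± 1.10), each SD with n = 3. In controls alone the H2AC6 row described above was lower than that of H2AC4. The H2BC18 row passed the test and the other 4 did not.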

How the data were processed

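ATAC-seq was measured in 6 libraries of nES cells, 3 per treatment, grouped by the sample titles. The authors trimmed the reads, aligned them to hg38 with Bowtie 2, called peaks with MACS2 in each replicate and kept the reproducible ones by IDR with the ENCODE pipeline, run separately for each treatment. The authors deposited 1 peak list per treatment, with each peak's fold enrichment over background as a ratio and its q-value as −log10, and 1 table that holds, per library, the raw read counts in the merged peaks of both lists, cut to 200 bp around the summit. How reads that match near-identical copies were assigned is not given in the sources used here. No column of per-sample values was left unused (0 columns).

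Starts, exons and coding parts were taken from GENCODE 44 (Python 3.11.15, pandas 2.3.3, numpy 2.4.6), and row identity was computed with Biopython 1.88. Counts of all 171517 rows were fitted in R 4.3.3 with edgeR 4.0.16 (TMM scaling, quasi-likelihood test, treatment as the only term), where the study used DESeq2. p-values were adjusted by Benjamini-Hochberg over all rows, and a row was called at an adjusted p below 0.05. With 3 against 3 libraries an exact permutation test cannot go below p = 0.10, so tests rest on the model over all rows. The SE was derived from the F statistic, as |log2 fold change| / √F. Totals of 13025674 to 26828622 counts per library limit the precision of rows of few counts. The fits were tested on simulated data.

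The members, gene lists, motifs and naming rule were chosen with earlier results of these data known. The rule named, per class, the 2 highest and the lowest row and the row of smallest p in each direction, and the 12 rows of smallest p in all classes, with genes of other lists at an adjusted p below 0.01 (at most 3 a list), NPAT and SLBP. Other rows were named after their values were seen. Alternatives were RLE, total-count and cyclic loess scaling, offsets for GC content, DESeq2 1.42.0, at least 10 counts in every library, the replicate number as a block, leaving out each library, windows of 250 and 500 bp and an adjusted p below 0.01. Restricting rows to those with a summit in both lists, or to those under 95% identity, was added after seeing the data. The replicate numbers did not pair the samples: the correlations of deviations from the treatment means between same-numbered libraries were -0.02, -0.0009 and 0.01.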

Additional observations from a re-analysis of the deposited data

How the results depend on the processing

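The main counts over histone rows were 17 lower and 20 higher, 3 at the study's thresholds, 15 higher inside genes and 7 lower beyond ends. DESeq2 gave 10 lower, 7 higher and 7 higher inside. Over all rows DESeq2 gave 11394 lower and 6267 higher, against 18047 and 12743 in the main fit. An adjusted p below 0.01 gave 9 lower, 7 higher and 7 higher inside. Rows within 250 bp gave 6 lower, 6 higher, 0 at the study's thresholds and 3 higher inside, and rows within 500 bp gave 6 lower, 1 at the study's thresholds and 0 lower beyond ends, since fewer rows remain. Rows with a summit in both lists gave 1 at the study's thresholds and 4 lower beyond ends. Leaving out 1 library at a time gave 9 to 20 lower, 4 to 21 higher, 1 to 4 at the study's thresholds, 4 to 15 higher inside and 5 to 7 lower beyond ends, with a median log2 fold change of -0.068 to -0.012. Over all rows these fits gave 12196 to 18744 lower and 7808 to 13082 higher.

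The H1 median was 0.08 within 250 bp, 0.149 within 500 bp and -0.114 for rows in both lists, and ran from -0.054 to 0.091 over left-out libraries. The H4 median was 0.075 with GC offsets, 0.066 with GC offsets and the replicate block, and 0.055 for rows in both lists. The H4C1 start turned to -0.0036 with at least 10 counts in every library, and ran from -0.04 (control replicate 3 left out, -0.02 with dm-αKG replicate 1 left out) to 0.06. The shared H2AC15 start turned to 0.08 with GC offsets, with or without the block, and ran from -0.09 to 0.02 over left-out libraries (0.0022 for control replicate 3, 0.02 for dm-αKG replicate 1). The cause was not tested. With the replicate number as a block, 17 rows were lower and 18 higher, and 35 of these 35 calls were shared with the 37 made without it. The numbers are shared by libraries only in name, and the block is no paired analysis. Over the 24 rows named by rule, 318 values under the alternatives kept direction and side of the threshold, 10 (4 rows) lost the call and 7 (2 rows) turned in sign. Rows named only after their values were seen are not in this tally. Rows of under about 50 counts per library carry wide errors, and a difference there that did not pass was not detectable at this depth.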
